A study of Mus musculus with 6 samples.

Results

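The genes examined encode the machinery that places the ring of Sm proteins on spliceosomal snRNAs. Members were taken by symbol and comprise Smn1, Gemin2, Gemin4, Gemin5, Gemin6, Gemin7 and Gemin8 of the SMN complex, and Prmt5, Wdr77 and Clns1a of the PRMT5 complex. All 10 were found among 25351 genes with a symbol, and 8 of them had splicing events in the deposited event tables. The study asked how loss of CD2BP2/U5-52K, an assembly factor of the U5 snRNP, changes peripheral T cells. Sorted CD4+ T cells of spleen and lymph nodes were sequenced for their RNA from 3 cKO mice (libraries KO_7.8, KO_9.10, KO_11.12; genotype U5-52Kf/f CD4-Cretg) and 3 Control mice (CTRL_1.2, CTRL_3.4, CTRL_5.6), and values per library are given in this order. The first pair of Control libraries was U5-52Kwt/f CD4-Cretg, so that Cre could act on 1 allele there too, while CTRL_5.6 was U5-52Kf/f CD4-Cre-. CD4-Cre acts from a late stage of thymocyte development, and cKO CD4+ T cells of the periphery are the cells that remained afterwards. By flow cytometry, the study found a lower share of naive cells among CD4+ T cells in the cKO spleen. The share of effector memory cells was higher there, and that of central memory cells was higher in lymph nodes. The part of this in the values of the members was not tested. The mice were males of 8 to 12 weeks. All p-values rest on these 6 libraries, and in the models the spread of a gene or event was moderated with that of others. For skipped exons, the spread shared with other events weighed most.

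Spliceosomal snRNPs that carry an Sm ring receive it in the cytoplasm, before they return to the nucleus. PRMT5 and its partner WDR77 (MEP50) methylate arginines in the tails of several Sm proteins, while pICln, the product of Clns1a, holds Sm proteins as incomplete rings. The SMN complex then takes over the Sm proteins, GEMIN5 recognizes the snRNA, and the ring is closed around the Sm site. U5 snRNP, the particle to which CD2BP2/U5-52K belongs, carries the same Sm ring. In human spinal muscular atrophy the SMN1 gene is lost, and the remaining SMN2 gene leaves out, in most of its transcripts, the exon conventionally called exon 7. Mice have the single gene Smn1.

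Exons whose inclusion is described below were read from the GENCODE M21 transcripts of GRCm38 and are printed 5′ to 3′ on the strand of the gene. They are the Smn1 exon that corresponds to human exon 7, the Gemin5 exon with the largest difference in inclusion, both Gemin5 exons with a pair of acceptor sites 3 bases apart, the Wdr77 exon with 2 donor sites, and the rare Gemin2 exon of smallest p. Capitals mark the stop codon in Smn1, the 3 bases that only the long form holds in Gemin5 exons 19 and 27, and the 17 bases of the long form in Wdr77 exon 8. Exon 17 of Gemin5 and the Gemin2 exon have no part marked.
Smn1 exon 8, coding bases and stop codon, chr13:100135689-100135736, plus strand: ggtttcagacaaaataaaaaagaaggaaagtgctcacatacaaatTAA
Gemin5 exon 17, chr11:58139495-58139608, minus strand: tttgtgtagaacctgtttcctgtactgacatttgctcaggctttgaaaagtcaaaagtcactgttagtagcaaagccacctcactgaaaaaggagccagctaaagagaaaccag
Gemin5 exon 19, long form, chr11:58137668-58137766, minus strand: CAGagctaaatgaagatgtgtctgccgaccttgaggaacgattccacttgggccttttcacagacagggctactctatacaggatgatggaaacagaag
Gemin5 exon 27, long form, chr11:58122282-58122378, minus strand: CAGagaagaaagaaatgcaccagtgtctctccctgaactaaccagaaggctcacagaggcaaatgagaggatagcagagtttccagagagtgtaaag
Wdr77 exon 8, long form, chr3:105965765-105965873, plus strand: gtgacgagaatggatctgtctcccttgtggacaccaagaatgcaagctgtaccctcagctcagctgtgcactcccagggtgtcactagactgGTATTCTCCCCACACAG
Gemin2 134-base exon, chr12:59016075-59016208, plus strand: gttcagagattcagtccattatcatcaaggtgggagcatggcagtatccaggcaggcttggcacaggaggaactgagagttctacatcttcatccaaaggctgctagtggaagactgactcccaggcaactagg

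Reads in genes numbered 69981159 to 82286366 in the cKO libraries and 56995121 to 75606222 in the Control libraries. Cd2bp2, the targeted gene, had normalized counts of 884, 874 and 738 in cKO, against 2624, 2602 and 2612 in Control, where the libraries with Cre and 1 floxed allele were as high as the library without Cre (log2 fold change -1.65, adjusted p = 0.00137 from limma). All 8 markers of CD4+ T cells were at high counts in every library, with Cd4 at 54431 to 59883 in cKO and at 57495 to 62831 in Control. All 8 had a negative log2 fold change, between -0.33 and -0.03, and 0 passed the test, but Cd3e (38946 to 44737 in cKO and 48742 to 58550 in Control) and Cd28 (18427 to 23388 in cKO and 26394 to 27848 in Control) did not overlap. The 6 markers of CD8+ and cytotoxic cells summed to 24088 to 27048 in cKO and 14083 to 18675 in Control. Nkg7 made up the largest part of this sum, with means of 19086 in cKO and 9409 in Control. Means were lower in cKO for Cd8a (26.4 against 61.7), Cd8b1 (701 against 1031) and Prf1 (4375 against 4587). They were higher for Gzma (687 against 312) and Klrd1 (587 against 559), and the libraries of all these genes but Nkg7 overlapped. KO_7.8 stood apart: its 9 myeloid markers summed to 30200 normalized counts, against 5721 and 7239 in the other cKO libraries and 3629 to 7121 in Control, and its 15 cell cycle genes summed to 58392, against 30566 to 34817 in the other libraries. The listed myeloid markers S100a8 and S100a9 went the other way within cKO. S100a8 was at 11.6 in KO_7.8, against 75.8 and 73.5 in KO_9.10 and KO_11.12, and S100a9 at 7.36, against 26.9 and 33.7. Of 6 listed erythroid genes, 5 were found by symbol and Hbb-bs was not. The 5 summed to 3085 in KO_7.8 and 4080 in CTRL_5.6, with 171 to 487 in the other libraries. Most of the sum in KO_7.8 and CTRL_5.6 came from Hba-a1 (1327 and 1791) and Hba-a2 (1266 and 1672). The listed gene Alas2 lay between 18.2 and 33.6 in all libraries. The 7 B cell markers summed to 3402 to 6445 in cKO and 7830 to 11205 in Control. The 5 dendritic cell markers summed to 10591, 3815 and 4338 in cKO, against 2465, 2118 and 3263 in Control. Of the 4 that were tested, limma called 1, Zbtb46 (adjusted p = 0.023). Its normalized counts were 1585, 1333 and 1316 in cKO, against 725, 744 and 639 in Control. Itgax was also higher in every cKO library, while the libraries of Flt3, Siglech and Clec9a overlapped. Siglech was highest in CTRL_5.6 (579), and Clec9a was lowest in KO_9.10 (4.21). The part of these cells in the values of the members was not tested, and each member that stood outside the Control range is given without KO_7.8 as well. In bulk RNA, fewer cells of a type and less RNA per cell cannot be told apart.

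No member passed the test for expression between cKO and Control CD4+ T cells. A member is called at an adjusted p under 0.05 in limma over 11001 genes, and 9 of the 10 members had the mean of 100 normalized counts in either condition that testing required. Of these 9, 0 were called higher, against a background of 0.673% of all tested genes, and 0 were called lower, against 0.300%. At an unadjusted p under 0.05 there were 3 (Smn1, Gemin5 and Wdr77), where 16.7% of all tested genes were. edgeR on the whole reads called 0 members, also with 3 at an unadjusted p under 0.05, and DESeq2 on the same reads called these 3. DESeq2 called 926 genes in all, against 107 by limma and 112 by edgeR.

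The differences ran in both directions. Smn1 was higher in every cKO library than in any Control library and so was Prmt5, while Gemin5 and Wdr77 were lower in every cKO library. These 2 members above and 2 members below the Control range compare with 12.6% and 11.5% of all tested genes. The median log2 fold change of the 9 members was 0.02, beside 0.01 over all tested genes. Every 95% interval of a member lay between 0.613-fold and 1.43-fold, so that a 2-fold difference lay outside all 9 intervals.

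**Figure D1:**
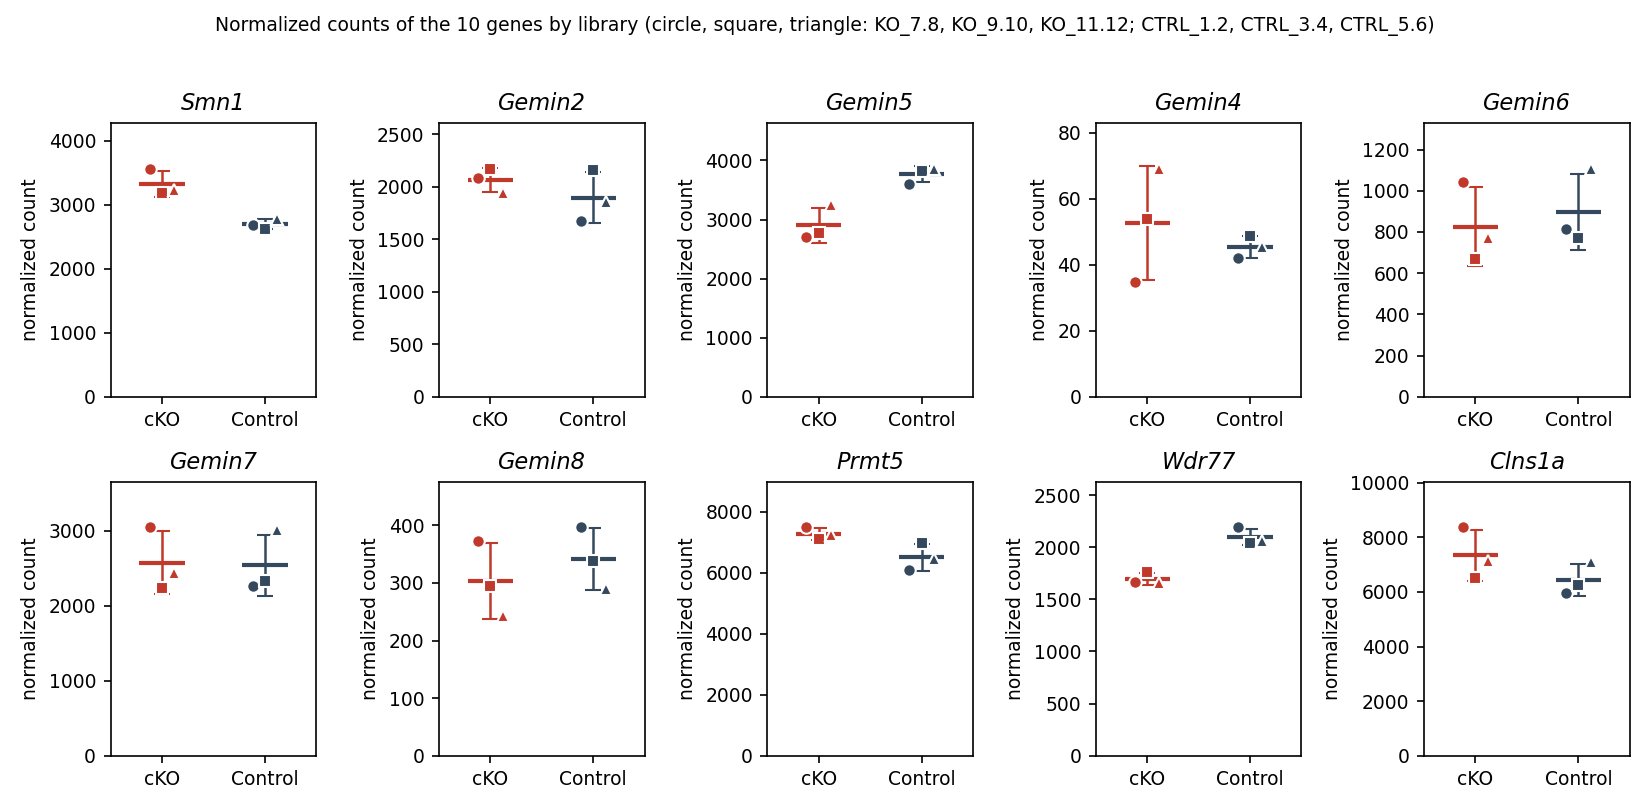
Normalized counts of the 10 genes in each library, cKO left and Control right in each panel, with the y axis from 0. Bars mark the mean and SD of 3 libraries; Smn1 and Prmt5 lie higher and Gemin5 and Wdr77 lower in all cKO libraries, the other 6 genes overlap, and Gemin4 lies under 70 counts.

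Smn1 encodes SMN, the protein around which the complex is organized. The gene (ENSMUSG00000021645) occupies positions 100124852 to 100137690 of chromosome 13 (GRCm38, plus strand) and shares no exonic base with another gene. Its normalized counts were 3569, 3189 and 3233 in cKO, against 2690, 2630 and 2783 in Control. The lowest cKO library was thus above the highest Control library. The mean was 3330 ± 208 in cKO and 2701 ± 77.3 in Control (SD, n = 3 each), a log2 fold change of 0.30 (SE 0.089, limma adjusted p = 0.175, DESeq2 adjusted p = 0.033). Without KO_7.8, the library with the highest myeloid sum, the difference was 0.25.

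Gemin2 encodes the subunit that binds SMN and holds the Sm proteins during assembly. It occupies 59013393 to 59028470 of chromosome 12 (plus strand). Its normalized counts were 2081, 2174 and 1943 in cKO, against 1680, 2157 and 1858 in Control, and the conditions overlapped. The log2 fold change was 0.13 (SE 0.12, limma adjusted p = 0.661), with a 95% interval of the fold from 0.896 to 1.33.

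Gemin5 encodes the large WD-repeat protein of the complex that recognizes the snRNA. The gene (ENSMUSG00000037275) occupies 58120002 to 58168539 of chromosome 11 (minus strand). Normalized counts were 2703, 2767 and 3246 in cKO, against 3607, 3828 and 3862 in Control. Here the highest cKO library was below the lowest Control library, in the direction opposite to Smn1. Gemin5 averaged 2905 ± 297 in cKO and 3766 ± 138 in Control (SD, n = 3 each), and the cKO mean was 0.772 of the Control mean. The log2 fold change was -0.38 (SE 0.10, limma adjusted p = 0.150, DESeq2 adjusted p = 0.0105). Without KO_7.8 it was -0.33, and over all alternatives it ranged from -0.46 to -0.31.

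Gemin4, which joins the complex together with the helicase encoded by Ddx20, had the lowest counts of the 10 genes and was not tested by limma. Normalized counts were 34.7, 53.9 and 69.1 in cKO, against 42.0, 48.8 and 45.3 in Control. The Control libraries lay within the range of the cKO libraries (two-sided exact permutation test, p = 0.7, where 3 against 3 libraries cannot go below 0.1). The gene occupies 76210571 to 76217664 of chromosome 11 (minus strand), and 3410 of its 3734 exonic bases are also exonic in Glod4, Fam57a or Dbil5. Glod4 had 4647 normalized counts on average in cKO and 4113 in Control. The sources used here do not say how reads in shared bases were assigned, so the level of Gemin4 cannot be set beside those of the other members.

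Gemin6, Gemin7 and Gemin8 encode the small subunits that bridge SMN, the Sm proteins and the other Gemins. Gemin6 (chromosome 17 from 80224441 to 80228497) had 1041, 670 and 768 normalized counts in cKO, against 816, 769 and 1108 in Control. Gemin7 (chromosome 7 from 19564946 to 19577595) had 3046, 2236 and 2440 in cKO, against 2270, 2333 and 3012 in Control. Among cKO libraries both were highest in KO_7.8, and among Control libraries in CTRL_5.6, and the conditions overlapped. These are the libraries in which the erythroid genes summed to 3085 and 4080, KO_7.8 also had the highest myeloid and cell cycle sums, and CTRL_5.6 is the only library without Cre. The part of each in these values was not tested. The log2 fold change was -0.12 (SE 0.21, limma adjusted p = 0.834) for Gemin6, and it changed sign to 0.04 without CTRL_5.6 and to 0.01 without KO_9.10. For Gemin7 it was 0.02 (SE 0.16, limma adjusted p = 0.971) and ranged from -0.11 to 0.15 when 1 library was left out. The processed pseudogene Gemin6-ps held at most 10.1 normalized counts in any library.

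Gemin8 lies on the X chromosome from 166170454 to 166190512. It had the lowest count among the tested members, with 372, 295 and 242 normalized counts in cKO, against 396, 339 and 290 in Control. The conditions overlapped, and the log2 fold change of -0.18 had an SE of 0.22 (limma adjusted p = 0.751). Its 95% interval, 0.613-fold to 1.27-fold, reached lowest among the members.

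Prmt5 encodes the arginine methyltransferase and occupies 54507187 to 54517525 of chromosome 14 (minus strand). Its normalized counts were 7486, 7110 and 7236 in cKO, against 6083, 6961 and 6452 in Control. Each cKO library was above each Control library, with KO_9.10 (7110) and CTRL_3.4 (6961) closest. The log2 fold change was 0.17 (SE 0.085, limma adjusted p = 0.388, DESeq2 adjusted p = 0.293), and 0.14 without KO_7.8.

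Wdr77, whose product binds PRMT5 and presents substrates to it, had the reverse pattern. The gene (ENSMUSG00000000561) occupies 105959369 to 105970037 of chromosome 3 (plus strand), and its normalized counts were 1663, 1761 and 1656 in cKO, against 2190, 2042 and 2064 in Control. All cKO libraries were below all Control libraries, and neither condition spread by more than 3.81% of its mean (coefficient of variation). Wdr77 averaged 1693 ± 58.7 in cKO and 2099 ± 80.0 in Control (SD, n = 3 each), a log2 fold change of -0.31 (SE 0.091, limma adjusted p = 0.172, DESeq2 adjusted p = 0.0246). Without KO_7.8 it was -0.30. Of its 4841 exonic bases, 1523 are shared with the transcript Gm42890 on the same strand or with Atp5f1 on the opposite strand. Gm42890 held at most 52.2 normalized counts in a library. Atp5f1 averaged 18569 normalized counts in cKO and 15830 in Control, higher in cKO where Wdr77 was lower, and its libraries overlapped.

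Clns1a encodes pICln, the chaperone that holds the Sm proteins before the SMN complex receives them. It occupies 97696634 to 97720796 of chromosome 7 (plus strand) and had 8367, 6516 and 7152 normalized counts in cKO, against 5959, 6253 and 7098 in Control. The conditions overlapped, and the log2 fold change was 0.19 (SE 0.12, limma adjusted p = 0.501).

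Ratios of 2 members within a library do not depend on how libraries are scaled. They were formed after the values above had been seen and are given as a description, with no test. Smn1 and Prmt5 lay above the Control range and Gemin5 and Wdr77 below it. Separation of Smn1 to Gemin5 and of Wdr77 to Prmt5 follows from those values and adds nothing to them. For every Prmt5 count there were 0.222, 0.248 and 0.229 Wdr77 counts in cKO, against 0.360, 0.293 and 0.320 in Control. The cKO mean was 71.8% of the Control mean, and the lowest Control ratio lay above the highest cKO ratio. For every Gemin5 count there were 1.32, 1.15 and 0.996 Smn1 counts in cKO, against 0.746, 0.687 and 0.721 in Control. Here the cKO mean was 161% of the Control mean. Clns1a stood in a like proportion to Prmt5 in both conditions, at 1.12, 0.916 and 0.988 in cKO and 0.980, 0.898 and 1.10 in Control. Gemin2 counts per Smn1 count were 0.583, 0.682 and 0.601 in cKO and 0.624, 0.820 and 0.668 in Control, and overlapped.

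**Figure D2:**
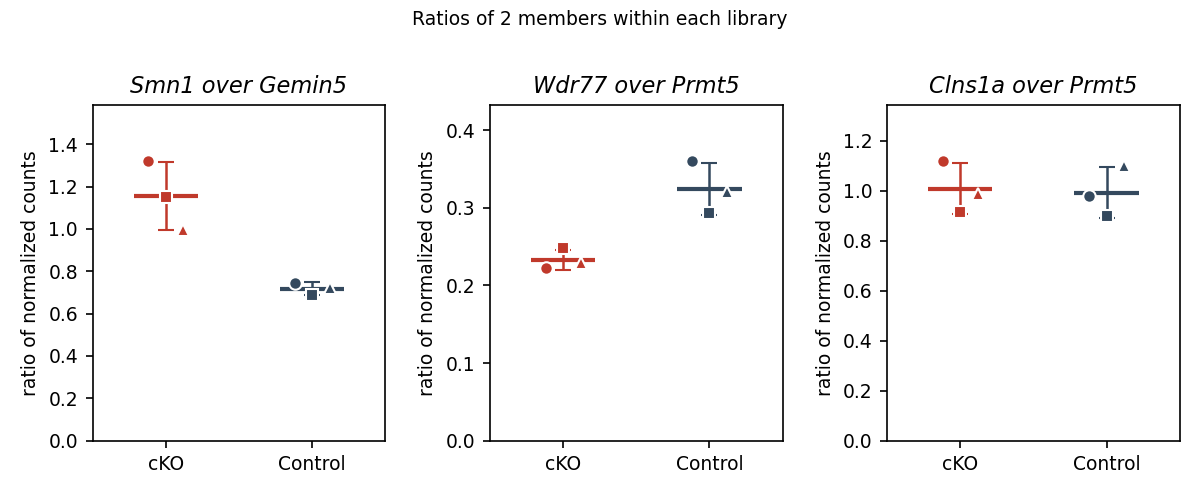
Ratio of the normalized counts of 2 genes within each library, cKO left and Control right, y axis from 0, with the mean and SD of 3 libraries. The Smn1 to Gemin5 ratio is higher and the Wdr77 to Prmt5 ratio lower in all cKO libraries, while the Clns1a to Prmt5 ratio overlaps.

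Levels can be set side by side per kilobase of exon (union of the annotated exons). In Control, Clns1a was at 1669 normalized counts per kb, Prmt5 at 1642 and Gemin7 at 1425, and neighbours in this order overlapped between libraries. Smn1 followed at 1042, apart from Gemin7 above it and from Gemin2 below it at 786 per kb. Gemin2, Gemin6 (628 per kb) and Gemin5 (569 per kb) overlapped with their neighbours, and Wdr77 at 434 and Gemin8 at 137 per kb each stood apart. In cKO the order was the same, with Clns1a at 1905, Prmt5 at 1839, Gemin7 at 1445, Smn1 at 1285, Gemin2 at 856, Gemin6 at 579, Gemin5 at 439, Wdr77 at 350 and Gemin8 at 122 per kb. There, Prmt5 stood apart from Gemin7, and Smn1 overlapped with Gemin7. The places of Wdr77 and Gemin7 depend on how reads in shared bases were assigned, since 31.5% of the exonic bases of Wdr77 and 14.8% of those of Gemin7 are shared with other genes. Per kb of unshared exonic bases, a scale chosen after seeing the data, Wdr77 would stand at 510 in cKO and 633 in Control, above Gemin5 (439 in cKO and 569 in Control), and Gemin7 at 1695 in cKO and 1671 in Control, above Prmt5 in Control.

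Averaged over the 9 tested members, the cKO libraries stood at 0.11, -0.10 and -0.07 from the mean of Control on the log2 scale, against -0.05, -0.01 and 0.06 for the Control libraries. KO_7.8 was highest within cKO, and CTRL_5.6, the only library without Cre, was highest within Control. The map of distances shows that this average holds differences of opposite sign: Smn1 stood at 0.40, 0.24 and 0.26 in the cKO libraries and Gemin5 at -0.48, -0.44 and -0.21. By Pearson's r over the 6 libraries, the genes outside the members most like their mean were Cct5 (r = 0.996), Serp1 (0.995), Polr1e (0.995), Aimp2 (0.994) and Gm5854 (0.992). These were the highest r of all other tested genes, and all 5 genes were, like the mean, highest in KO_7.8 and CTRL_5.6.

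**Figure D3:**
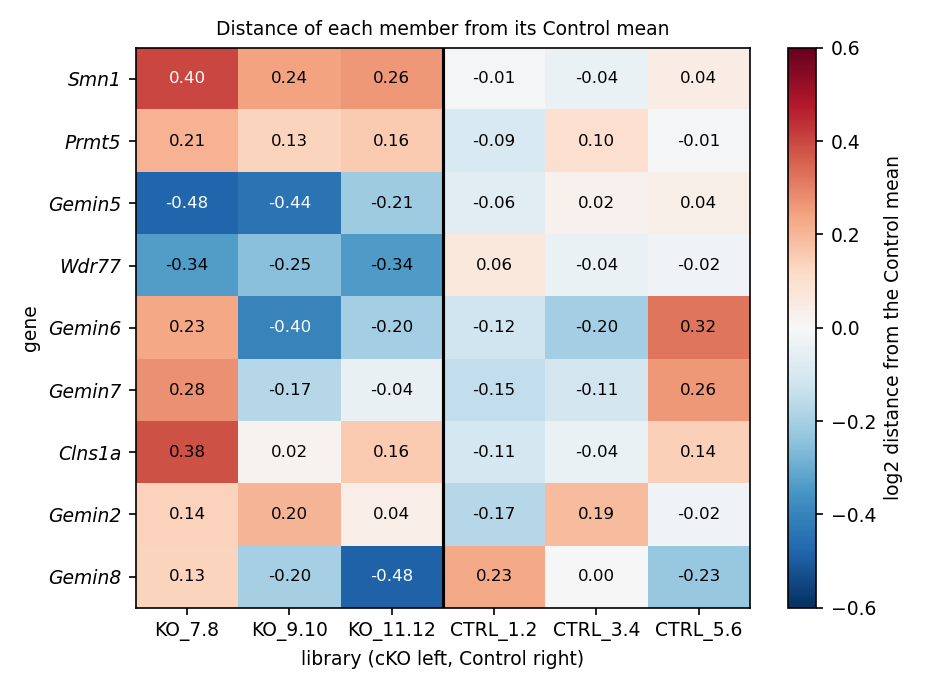
Log2 distance of each tested member from its own Control mean in each library, cKO libraries left of the line and Control libraries right. Smn1 and Prmt5 are positive and Gemin5 and Wdr77 negative in all 3 cKO libraries; Gemin6 and Gemin7 are highest in KO_7.8 and CTRL_5.6.

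Other genes of snRNP assembly were taken from 5 lists with 23 genes, of which 21 were tested. limma called 0 of the 21 in either direction. At an unadjusted p under 0.05 there were 5, where 16.7% of all tested genes were. Of the 21, edgeR called 0 and DESeq2 called 1, Ncbp2. The median log2 fold change of the 21 genes was 0.06. Ncbp2, which encodes the small subunit of the nuclear cap-binding complex, had 3100, 2575 and 2540 normalized counts in cKO, against 1896, 1923 and 1935 in Control. All its cKO libraries lay above all Control libraries, as in 12.6% of all tested genes. Its log2 fold change was 0.51 (SE 0.11, limma adjusted p = 0.0983, DESeq2 adjusted p = 0.00168). Ncbp1, its large partner subunit, had 6088, 5025 and 5315 in cKO, against 6206, 6438 and 6916 in Control (log2 fold change -0.26, limma adjusted p = 0.276). Phax, the adaptor for snRNA export, had a log2 fold change of 0.24 (limma adjusted p = 0.292). The other 5 genes of this list, Tgs1, Snupn, Xpo1, Kpnb1 and Coil, lay between -0.18 and 0.23.

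The 7 tested Sm protein genes had log2 fold changes between 0.04 and 0.41, and 0 passed the test. Without KO_7.8, but with CTRL_5.6 kept, 3 genes were positive and 4 negative, between -0.083 and 0.28. The lowest of these, Snrpg, had 3589 and 4029 normalized counts in KO_9.10 and KO_11.12. Its Control counts were 3515, 3555 and, in CTRL_5.6, 5230. The 8 Sm protein genes summed to 60284, 45931 and 51296 normalized counts in cKO, against 42207, 44530 and 51881 in Control. The other cKO libraries thus lay within the Control range, of which CTRL_5.6 was the top. Snrpd2 had the largest log2 fold change (0.41, limma adjusted p = 0.226). Its normalized counts were 7435, 5509 and 5982 in cKO, against 4261, 4701 and 5264 in Control. Snrpd3 and Snrpb followed by p, with log2 fold changes of 0.18 and 0.15 and limma adjusted p of 0.403 and 0.589. Lsm11, which replaces an Sm protein in the U7 snRNP, had 176, 258 and 195 normalized counts in cKO, against 296, 321 and 281 in Control (-0.53, limma adjusted p = 0.269), while its partner Lsm10 stood at 0.04. Ddx20 and Strap of the SMN complex had 0.05 and 0.08, and the PRMT5 adaptor Riok1 and the methyltransferase Prmt7 had -0.06 and -0.09. With both KO_7.8 and CTRL_5.6 left out, an alternative chosen after seeing the data, limma called Snrpd2 and Ncbp2 higher and Ncbp1 lower (adjusted p = 0.0246, 0.0104 and 0.0489), among 865 genes higher and 620 lower in all, and 0 members.

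**Figure D4:**
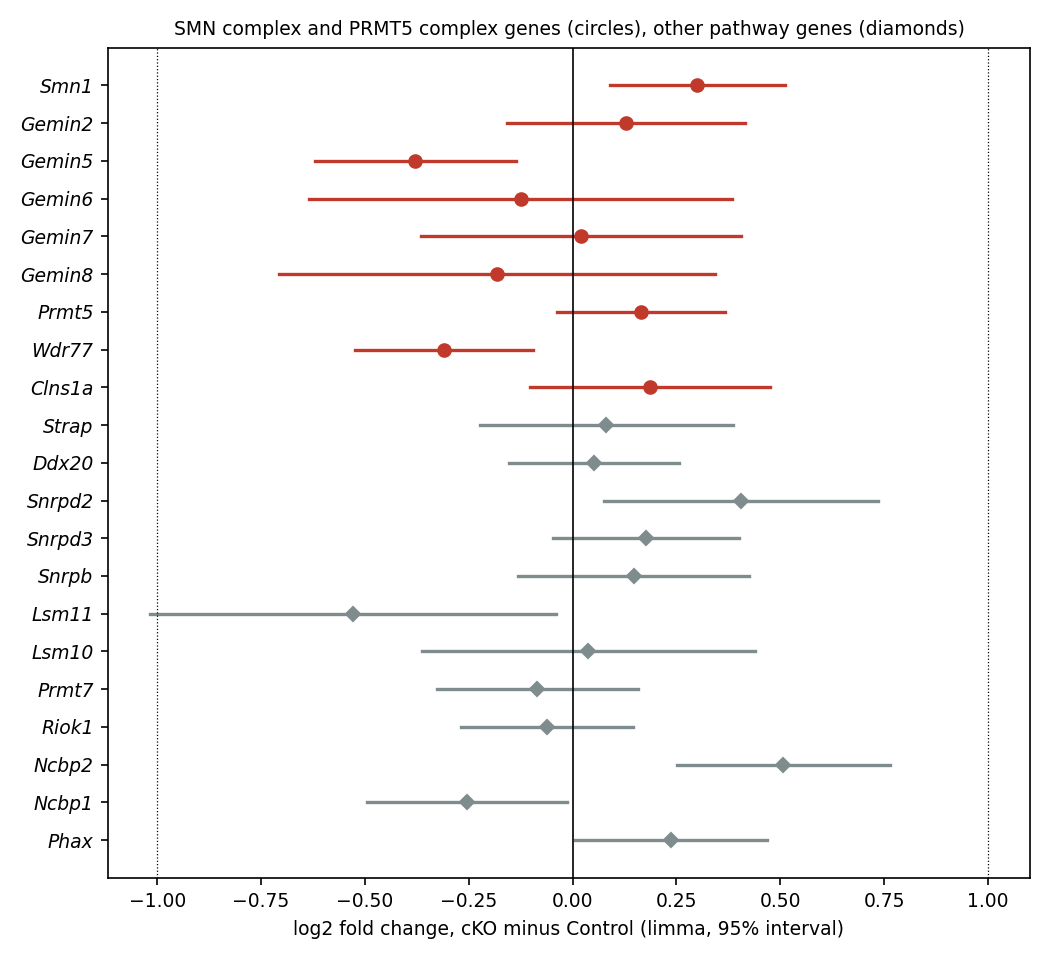
Log2 fold change (cKO minus Control) with its 95% interval from limma for the 9 tested members (circles) and 12 other genes of snRNP assembly (diamonds); dotted lines mark a 2-fold difference. The intervals of Smn1, Gemin5, Wdr77, Snrpd2, Lsm11, Ncbp2, Ncbp1 and Phax do not include 0 before adjustment, and the interval of Lsm11 is the one that reaches a 2-fold difference.

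No splicing event of a member passed the test between cKO and Control, and most tested skipped exons were near an extreme: 21 of 28 were included at over 98% in both conditions and 4 at under 2% in both. rMATS listed 45 events in 8 members, none in Gemin4 or Gemin6, and 40 had the mean of 20 reads in both conditions required for testing. An event is called at an FDR under 0.01 with a difference in inclusion of at least 10 percentage points. Of 28 tested skipped exon events 0 were called (0.495% of all tested events of that class), and likewise 0 of 4 mutually exclusive exons (0.250%), 0 of 4 alternative 3′ splice sites (0.584%), 0 of 1 alternative 5′ splice site (1.08%) and 0 of 3 retained introns (0.181%). At an unadjusted p under 0.05 there were 2 of 28 skipped exons, where 8.78% of all tested skipped exons were, and 0 in the other classes. limma on the logit of inclusion also called 0. Of the 40 events, 25 differed by less than 1 point, 12 by 1 to 5 points and 3 by 5 points or more. Inclusion was lower in cKO in 15 of the 28 skipped exons, beside 65.5% of all tested skipped exons. The event tables hold 3 values per condition with no library names, and they number the conditions without naming them. Which is cKO was taken from the study's own definition of the inclusion difference, and every direction of a splicing difference given here rests on that reading.

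The largest difference among tested events was in Gemin5 exon 17, whose sequence is printed above. This coding exon of 114 bases keeps the reading frame when it is left out and holds no stop codon in frame. Inclusion was 95.3%, 85.7% and 85.8% in cKO, against 96.3%, 100% and 93.6% in Control, and 1 cKO value lay within the Control range. The reads that skip the exon numbered 2, 11 and 10 in cKO, beside 72, 116 and 107 inclusion reads, against 3, 0 and 3 in Control, beside 136, 142 and 78. The mean inclusion was 88.9% ± 5.53 in cKO and 96.6% ± 3.20 in Control (SD, n = 3 each), a difference of -7.69 points (FDR = 0.366 from the quasi-binomial model over all tested skipped exons). The difference lay between -10.9 and -6.01 points when 1 value was left out. The other 3 tested exons of Gemin5, exons 5, 14 and 26, were included at 98.8% or more in both conditions.

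Both Gemin5 exons with tandem acceptors used the upstream site for most transcripts. For exon 19, the form with the 3 more bases CAG made up 70.2%, 69.6% and 57.5% in cKO, against 57.3%, 65.4% and 71.8% in Control. For exon 27 it made up 65.1%, 57.1% and 57.0% in cKO, against 51.5%, 55.8% and 63.7% in Control. The conditions overlapped at both, with differences of 0.93 points (FDR = 0.981) and 2.73 points (FDR = 0.904). Each choice adds or leaves out the length of 1 codon.

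Smn1 exon 8 of the annotated transcript, the counterpart of human exon 7, was included almost completely. From exon 7 to exon 9 its inclusion was 98.8%, 100% and 100% in cKO, against 99.4%, 99.7% and 99.6% in Control (difference 0.03 points, FDR = 0.968). In the second event of this exon, which joins exon 5 to it, inclusion was 100%, 96.2% and 100% in cKO, against 100% in all 3 Control values (-1.26 points, FDR = 0.692), from 4 skipping reads in 1 cKO value. Reads that skipped it from exon 7 numbered 5 of 1674 in cKO and 4 of 1229 in Control. Exons 2, 6 and 7 were included at 98.9% or more in both conditions, with the difference of smallest p at exon 6 (-1.08 points, FDR = 0.692). A 113-base exon annotated in a nonsense-mediated decay transcript of Smn1 was used at 0.467% in cKO and 0.443% in Control. Exons 7 and 8 were also listed as a mutually exclusive pair, with exon 7 at 41.6% ± 4.42 in cKO and 43.7% ± 4.79 in Control (SD, n = 3 each), although each of them was included at 98.7% or more in the skipped exon events.

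The smallest p of all member events was at the 134-base exon of Gemin2, which is annotated in a non-coding transcript of Gemin2. Its inclusion was 1.23%, 1.68% and 2.37% in cKO, against 0%, 0.813% and 0% in Control. The inclusion reads numbered 5, 11 and 14 in cKO and 0, 4 and 0 in Control. The difference was 1.49 points (unadjusted quasi-binomial p = 0.00945, FDR = 0.242 over the 39173 skipped exons tested). Inclusion of the 4 coding exons of Gemin2 tested, exons 4 to 7, was 98.4% or more in both conditions, and exons 4 and 5, listed also as a mutually exclusive pair, differed there by 1.67 points (FDR = 0.891).

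**Figure D5:**
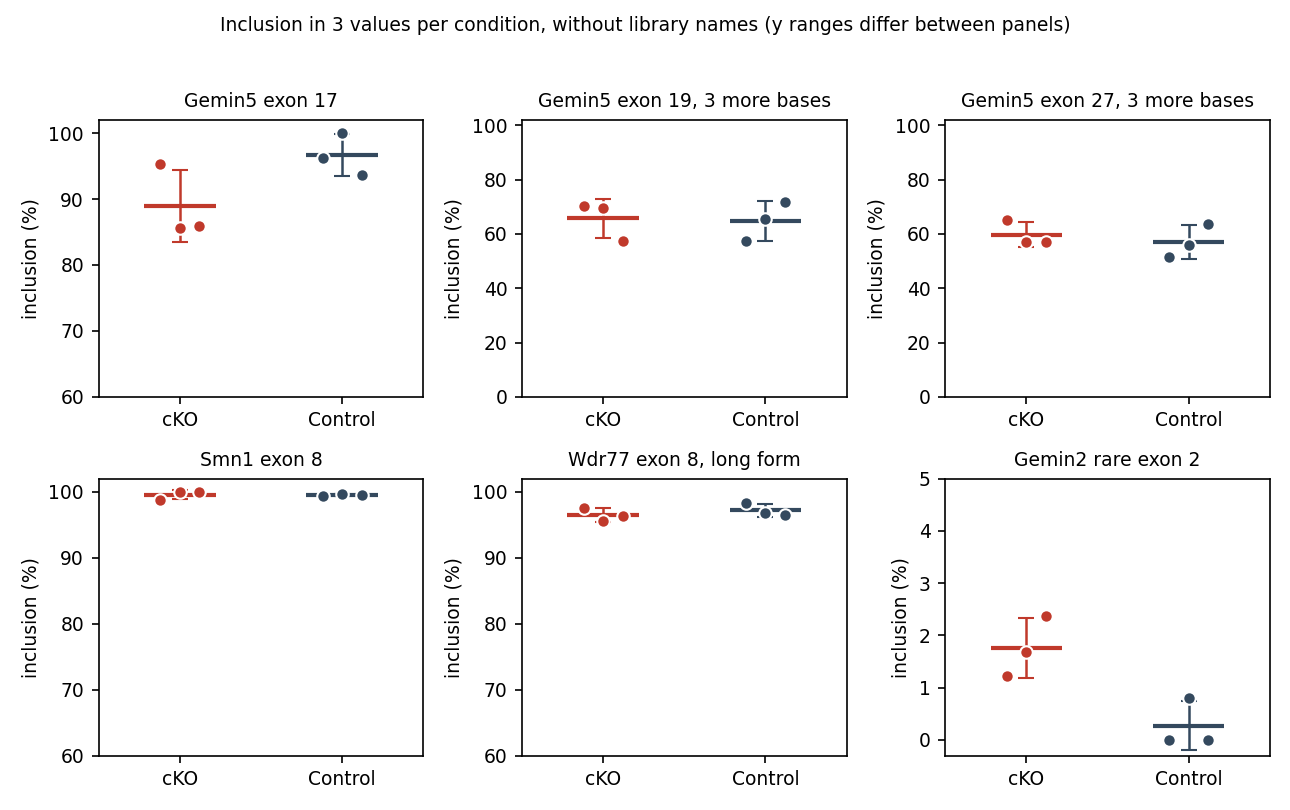
Inclusion in percent for 6 exons or exon forms of Gemin5, Smn1, Wdr77 and Gemin2, cKO left and Control right, with 3 values per condition and their mean and SD. The y ranges differ between panels and start above 0 for Gemin5 exon 17, Smn1 exon 8 and Wdr77 exon 8. The panel of Gemin2 shows its 134-base exon (exon 2 of the non-coding transcript) and reaches 5%.

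Wdr77 had the most events, 12, of which 11 were tested. Exon 5 and the long form of exon 8 were included at 99.6% or more in both conditions. Exon 7 was included at 99.3%, 99.2% and 98.6% in cKO, against 100%, 99.4% and 100% in Control (-0.80 points, FDR = 0.692). The long form of exon 8 made up 97.6%, 95.6% and 96.4% in cKO and 98.3%, 96.8% and 96.5% in Control (-0.69 points, FDR = 0.755). The intron after exon 8 was retained in 1.17% ± 0.112 in cKO and 1.45% ± 0.487 in Control when set against the long form (SD, n = 3 each). Set against the rare short form, which had 7 to 19 reads in cKO and 6 to 12 in Control, the same intron was at 52.4% in cKO and 58.7% in Control (-6.31 points, FDR = 0.869). That difference moved to 0.16 points without 1 of the Control values.

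In Prmt5, exons 2 and 4 were included at 98.2% or more in both conditions, and the intron between exons 2 and 3 was retained in 0.536% in cKO and 0.550% in Control. The 2 tested exons of Clns1a, exons 2 and 6, were included at 99.4% or more in both conditions, from 1250 or more reads per value on average. Gemin7 had rare exons in its 5′ UTR. The 145-base exon of Gemin7 was used at 0%, 0.363% and 0% in cKO, against 0.726%, 1.13% and 0.632% in Control (-0.71 points, FDR = 0.590), from 2 inclusion reads in cKO and 11 in Control. In Gemin8, 2 skipping reads in 1 cKO value gave the difference of -5.23 points at exon 3 (FDR = 0.692). Events that were not tested for want of reads were 1 in Gemin8, 1 in Wdr77 and 3 in Gemin7. The Gemin8 event is a 109-base exon of the 5′ UTR with 4, 1 and 6 inclusion reads in cKO, against 2, 1 and 0 in Control.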

How the data were processed

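The members and gene lists were chosen with earlier results of these data known. The authors removed adapters (cutadapt), mapped reads to GRCm38 from GENCODE (STAR), summed them per gene (featureCounts) and deposited a normalized signal, in which each count had been scaled by a size factor from DESeq2. Multiplied by 1 factor per library, 100% of values were whole reads within 0.01. The annotation release, strand setting and treatment of overlapping genes in the counting step are not given in the sources used here. Per the file headers, the rMATS tables hold inclusion and skipping reads per event, here taken as counts by the authors. Their fold changes, p-values and FDR were not used, and 0 columns of samples were left out.

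Testing used limma 3.58.1 under R 4.3.3 with Benjamini-Hochberg adjustment over 11001 genes that had a symbol and averaged 100 or more normalized counts in either condition. The scale was log2(normalized count + 1), which slightly understates low genes. edgeR 4.0.16 and DESeq2 1.42.0 on whole reads, other pseudocounts, filters and scalings, and leaving out each library were alternatives. Inclusion was the length-corrected share of inclusion reads. Events were tested by a quasi-binomial model per class, with the dispersion moderated over events whose rarer form had at least 5 reads and a floor of 1. Both procedures were tested on simulated data. For splicing, differences were simulated only in skipped exons with enough reads of the rarer form. How well a difference is found in exons with few such reads, as most tested exons of the members, was therefore not covered. Named were all members, up to 3 genes of smallest p per pathway list, the 5 genes most like the members' mean, called events and the event of smallest p per member and class. Other genes and events in the text were chosen after their values were seen. Exon positions and sequences came from GENCODE M21.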

Additional observations from a re-analysis of the deposited data

How the results depend on the processing

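Of 144 values of single members under the alternatives, 136 kept direction and side of the threshold. DESeq2 called Smn1 (0.29), Gemin5 (-0.39) and Wdr77 (-0.32), that is 1 member higher and 2 lower, and 1 pathway gene higher. With KO_7.8 and CTRL_5.6 both left out, an alternative chosen after seeing the data, 2 pathway genes were called higher and 1 lower. The cause was not tested. Leaving out 1 library gave log2 fold changes from -0.30 to 0.0365 for Gemin6, from -0.11 to 0.15 for Gemin7, from -0.0802 to 0.19 for Lsm10 and from -0.0338 to 0.16 for Strap, all of which include reversals, and 0 members or pathway genes were called in any of these fits. For splicing, 0 member events were called under each alternative. Leaving out 1 value moved the difference between -0.02 and 6.07 points for Gemin5 exon 27, -11.2 and 0.16 for the Wdr77 intron against the short form, -0.19 and 0.56 for Clns1a exon 2, -4.35 and 0.60 for the Smn1 exon pair, -0.75 and 4.08 for the Gemin2 pair of exons 4 and 5, and -0.22 and 0.18 for the Prmt5 intron. With the median over members in place of the mean, the cKO minus Control difference in the members' distance was 0.03, against -0.02. No paired analysis was possible because the labels give no shared replicate numbers. With 3 libraries per condition, the 95% intervals limit what could be seen of single members, and fewer than 20 inclusion reads lay behind each value of the rare exons of Gemin2 and Gemin7.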
